A study of Homo sapiens with 6 samples.

Results

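The genes examined here were the D-type cyclins, their kinases and the inhibitors of those kinases, which together control passage through the G1 phase of the cell cycle. They were chosen by name as 10 genes (CCND1, CCND2, CCND3, CDK4, CDK6, CDKN1A, CDKN1B, CDKN2A, CDKN2B and CDKN2C) of 58735 genes in the table, and each name matched 1 gene. RNA was sequenced from AsPC-1, an established human pancreatic cancer cell line. Vector cells (n = 3) carried an empty lentivirus, and OE-MMP28 cells (n = 3) carried a lentivirus with MMP28, which encodes a secreted matrix metalloproteinase. The labels give the genotype WT for Vector and MMP28 overexpression for OE-MMP28 cells, and both groups were stable populations kept after puromycin selection. Nothing in the labels said that the 3 libraries of a group came from separate cultures, so p-values measure only the spread between these libraries, which may be technical.

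D-type cyclins bind and activate CDK4 and CDK6, and the active kinases phosphorylate the retinoblastoma protein RB, which then releases E2F transcription factors that switch on genes for DNA replication. Inhibitors of the INK4 family, encoded by CDKN2A, CDKN2B, CDKN2C and CDKN2D, bind CDK4 and CDK6 and keep the cyclins away. Inhibitors of the CIP/KIP family, encoded by CDKN1A, CDKN1B and CDKN1C, bind whole complexes of a cyclin and its kinase and are known above all as inhibitors of CDK2. CDKN2D and CDKN1C are not among the 10 genes, and their values are given with the other inhibitors. Loss of CDKN2A is known as a frequent event in pancreatic cancer. The study measured the proliferation of these cells with other assays, and the comparison here asked whether transcripts of the G1 control genes differed between the groups.

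Among the 9 members that could be tested, 3 rose and 2 fell in OE-MMP28 cells. The cyclin gene CCND1, the kinase gene CDK4 and the inhibitor gene CDKN1A rose, and the inhibitor genes CDKN1B and CDKN2B fell, each by less than 1 on the log2 scale. Over all 15319 genes tested, 11.7% rose and 11.6% fell by the same rule, an adjusted p under 0.05 by edgeR's quasi-likelihood test. The median log2 fold change of the 9 members was 0.49 and that of all genes tested was 0.01, and the median absolute values were 0.52 and 0.33. The groups did not overlap in scaled counts for 7 of the 9 members, against 38.1% of all genes tested.

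Sequence before the transcription start is shown for 4 of the 5 members that passed the test, so that the letters of their promoters can be read beside their values. Each line gives the 250 bases before a RefSeq transcription start on GRCh38.p14, 5′ to 3′ on the strand of the gene, and 8 of the 10 members had an entry. Capitals mark the E-box CACGTG, the GC box GGGCGG and the CCAAT box CCAAT, each on either strand. CDK4 lies on the minus strand at chr12:57752311-57752560, CDKN1A on the plus strand at chr6:36678464-36678713, CDKN1B on the plus strand at chr12:12717118-12717367 and CDKN2B on the minus strand at chr9:22009306-22009555.
CDK4: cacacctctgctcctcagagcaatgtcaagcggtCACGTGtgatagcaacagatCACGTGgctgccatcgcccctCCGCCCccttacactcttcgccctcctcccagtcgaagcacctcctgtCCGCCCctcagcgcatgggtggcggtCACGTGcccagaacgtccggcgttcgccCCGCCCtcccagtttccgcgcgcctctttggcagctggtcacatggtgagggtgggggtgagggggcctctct
CDKN1A: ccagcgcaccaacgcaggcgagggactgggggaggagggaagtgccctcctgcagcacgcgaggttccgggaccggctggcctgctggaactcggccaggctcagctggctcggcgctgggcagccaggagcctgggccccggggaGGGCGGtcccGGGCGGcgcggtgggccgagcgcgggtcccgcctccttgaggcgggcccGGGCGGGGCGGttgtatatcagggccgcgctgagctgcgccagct
CDKN1B: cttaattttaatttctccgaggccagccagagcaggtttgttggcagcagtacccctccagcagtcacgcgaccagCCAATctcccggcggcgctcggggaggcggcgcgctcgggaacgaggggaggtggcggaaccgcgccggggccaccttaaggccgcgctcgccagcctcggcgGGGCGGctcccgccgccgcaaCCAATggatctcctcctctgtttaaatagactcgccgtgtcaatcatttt
CDKN2B: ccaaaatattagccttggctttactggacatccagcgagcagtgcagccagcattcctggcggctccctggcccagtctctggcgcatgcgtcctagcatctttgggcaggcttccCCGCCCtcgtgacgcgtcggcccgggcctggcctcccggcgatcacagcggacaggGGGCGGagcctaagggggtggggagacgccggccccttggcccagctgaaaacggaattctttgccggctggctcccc

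The window of CDK4 held 3 E-boxes, the letters bound by MYC with its partner MAX, at 216, 196 and 101 bases before the start. Of the 14 windows of the 8 members with an entry, 3 held an E-box, and these belonged to CDK4 and CDKN2C. An E-box was present in 6.34% of 35116 such windows over all genes. GC boxes, the letters bound by SP1, stood in 10 of the 14 windows of the 8 members with an entry, and in 42.6% of all windows. The window of CDKN1A held 4 of them, of which a pair overlapped, that of CDK4 held 3, that of CDKN2B held 2 and that of CDKN1B held 1. The CCAAT box, bound by the factor NF-Y, stood at 174 and 50 bases before the start of CDKN1B. It was in 4 of the 14 windows, which belonged to CCND3, CDKN1B and CDKN2C, and in 32.0% of all windows. The AP-1 letters TGANTCA, the E2F letters TTTCGCGC or TTTGGCGC and the TATA box TATAAA were in none of the 14 windows of the 8 members, and were in 6.57%, 0.968% and 10.7% of all windows. These matches describe letters in a window and no binding was measured.

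MMP28 itself was measured at 5.17, 9.11 and 8.43 FPKM in the Vector libraries and at 13.1, 13.9 and 15.1 FPKM in the OE-MMP28 libraries. FPKM divides the fragments of a gene by its length and by the size of the library, and it is used below wherever genes are compared with each other. The groups did not overlap. MMP28 rose by 0.90 on the log2 scale (SE 0.19, edgeR's quasi-likelihood test, Benjamini-Hochberg adjusted p = 0.00226), and a two-sided exact permutation test of FPKM gave p = 0.1, the smallest that 3 against 3 libraries allow.

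Total counts ran from 13633249 to 16691458 per library, and those of the OE-MMP28 group lay above those of the Vector group, so counts were compared after scaling. Mitochondrial genes took 11.9%, 14.5% and 14.8% of the counts in the Vector libraries and 11.5%, 8.80% and 11.9% in the OE-MMP28 libraries. With these genes removed, 3 members were called higher and 2 lower, as with them. The epithelial markers EPCAM, KRT8, KRT18 and KRT19 were abundant, whereas KRT7 reached at most 153 counts. The summed level of the 5 epithelial markers was 2562 to 3498 FPKM in Vector and 3503 to 4294 FPKM in OE-MMP28 libraries. Of 5 leukocyte markers, CD14 reached 30 counts and PTPRC and CD163 reached 1 count, and the sum was 1.02 to 1.18 FPKM in Vector and 0.711 to 0.932 FPKM in OE-MMP28 libraries. The 5 fibroblast markers summed to 33.9 to 40.9 FPKM and 39.3 to 57.0 FPKM, almost all of it LUM, while COL1A1 reached 11 counts and COL1A2 reached 1 count. The 4 endothelial markers summed to 0.0441 to 0.170 FPKM and 0.179 to 0.293 FPKM, with KDR at 0 counts in all libraries. The part of these marker levels in the differences below was not tested. In RNA of whole cultures, fewer cells of a type and less RNA per cell cannot be told apart.

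CCND1, the gene of cyclin D1, had the highest level of all members in both groups. It lies on chromosome 11 from 69641087 to 69654474 (GRCh38, plus strand; coordinates of genes are those of the table throughout). The Vector libraries measured 72.4, 49.4 and 53.7 FPKM, and the OE-MMP28 libraries measured 90.7, 84.9 and 75.0 FPKM. The groups did not overlap, and the highest Vector library lay 2.67 FPKM below the lowest OE-MMP28 library. CCND1 rose by 0.52 on the log2 scale (SE 0.16, 95% interval 0.19 to 0.85, edgeR adjusted p = 0.0207). The call was lost without Vector replicate 2 (adjusted p = 0.0723), Vector replicate 3 (0.105), OE-MMP28 replicate 1 (0.0701) or OE-MMP28 replicate 2 (0.0879), with log2 fold changes of 0.42 to 0.50 in these fits. The other genes tested within 10 Mb of CCND1 had a median log2 fold change of 0.29 over 337 genes, and relative to this regional median CCND1 differed by 0.23 (adjusted p = 0.355). LTO1, on the opposite strand, shares 10.3% of the exon bases of CCND1 and had a log2 fold change of 0.42 (adjusted p = 0.0689).

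The other D-type cyclins were low. CCND3, the gene of cyclin D3 on chromosome 6 (41934933 to 42050357, minus strand), measured 3.17, 2.61 and 2.54 FPKM in Vector and 3.20, 4.21 and 4.16 FPKM in OE-MMP28 libraries. Its groups did not overlap, but the nearest libraries were only 0.0363 FPKM apart, and the log2 fold change of 0.49 (SE 0.18, 95% interval 0.11 to 0.87) missed the threshold (edgeR adjusted p = 0.0592). Without Vector replicate 1 or OE-MMP28 replicate 1, the adjusted p for CCND3 was 0.0341 and 0.0247. It was 0.132 to 0.241 without any other single library, and CCND3 was called in 2 of 19 other fits. CCND2, the gene of cyclin D2 on chromosome 12 (4273772 to 4305350, plus strand), had 1 count in Vector replicate 1 and 0 counts in each of the other libraries, so it was not detectable above the limit of 3 counts per library (0.180 to 0.220 CPM, counts scaled to the library total) and was not tested.

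CCND1 made up 95.4% ± 0.41 (SD, n = 3) of the summed D-type cyclin level in Vector cells and 95.5% ± 0.95 (SD, n = 3) in OE-MMP28 cells. The summed level was 61.3 ± 12.5 FPKM and 87.4 ± 7.52 FPKM (SD, n = 3 each), without overlap between the groups. The composition of the cyclin pool overlapped between the groups, while its sum was higher in OE-MMP28 libraries. As CCND1 made up nearly all of this sum, its difference repeats that of CCND1. The class sums here and below were not tested, and 38.1% of all genes tested also showed no overlap in scaled counts.

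**Figure D1:**
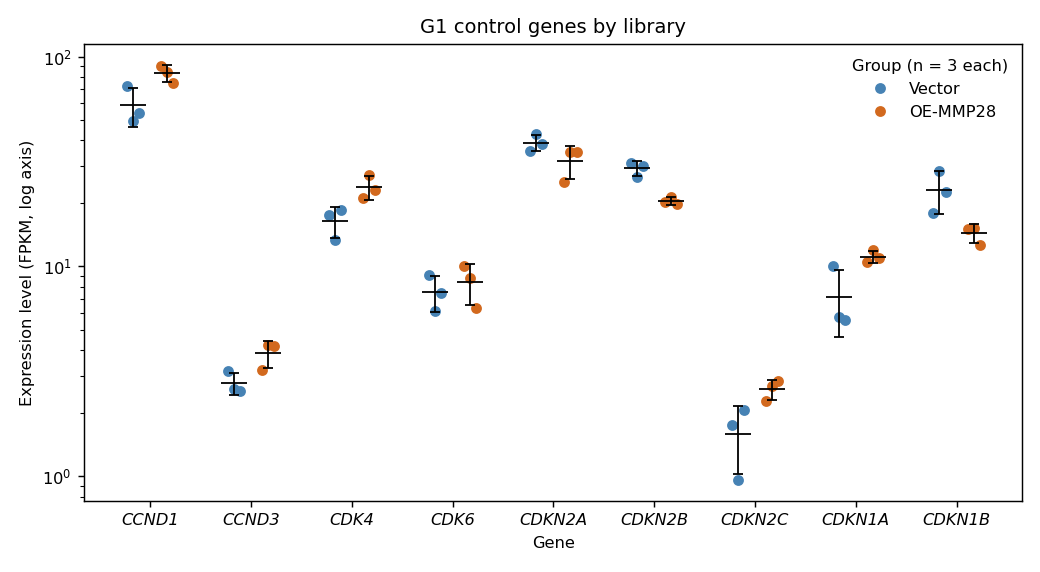
Level of each member in each library in FPKM (vertical, log axis) for 9 genes (horizontal), with 3 Vector points and 3 OE-MMP28 points per gene. Horizontal ticks are means and bars are SD (n = 3), CCND2 is left out at 0 or 1 count, and CCND1 stands highest in both groups at 58.5 and 83.6 FPKM.

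CDK4, the kinase gene on chromosome 12 (57747727 to 57756013, minus strand), measured 17.6, 13.3 and 18.5 FPKM in Vector libraries and 21.3, 27.4 and 23.1 FPKM in OE-MMP28 libraries. The highest Vector library lay 2.79 FPKM below the lowest OE-MMP28 library. CDK4 rose by 0.55 on the log2 scale (SE 0.17, 95% interval 0.20 to 0.90, edgeR adjusted p = 0.0217). The call was lost without Vector replicate 2 (0.0941) or OE-MMP28 replicate 2 (0.165), and relative to the median of genes within 10 Mb (0.0598, log2 fold change 0.47). TSPAN31, which lies on the opposite strand and shares 43.2% of the exon bases of CDK4, had a log2 fold change of -0.03 (adjusted p = 0.931). How the counting treated strand was not given in the sources used here, so reads from those bases cannot be assigned to either gene. The share of CDK6, the kinase sum and the rank of CDK4 below carry this limit too. The gene listed as 9-Mar in the table overlaps the range of CDK4 at its other end, on the opposite strand, and fell by 0.66 (adjusted p = 0.0283).

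CDK6, the second kinase gene of this pair on chromosome 7 (92604921 to 92836594, minus strand), measured 9.08, 6.13 and 7.44 FPKM in Vector and 10.03, 8.81 and 6.37 FPKM in OE-MMP28 libraries. Its groups overlapped, and its log2 fold change was 0.16 (SE 0.18, 95% interval -0.21 to 0.53, edgeR adjusted p = 0.549). CDK6 made up 31.4% ± 2.66 (SD, n = 3) of the summed CDK4 and CDK6 level in Vector and 26.0% ± 5.40 (SD, n = 3) in OE-MMP28 cells, and these shares overlapped. The summed level of both kinases was 24.0 ± 3.99 and 32.3 ± 3.47 FPKM (SD, n = 3 each), without overlap.

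Of the INK4 members, CDKN2B passed the test, and CDKN2A and CDKN2C did not. CDKN2B, the gene of p15 on chromosome 9 (22002903 to 22009363, minus strand), measured 31.2, 26.7 and 30.2 FPKM in Vector libraries and 20.2, 21.5 and 19.7 FPKM in OE-MMP28 libraries. Its groups stood 5.21 FPKM apart at their nearest libraries, the widest gap in FPKM among the members. CDKN2B fell by 0.51 on the log2 scale (SE 0.15, 95% interval -0.81 to -0.21, edgeR adjusted p = 0.0151). The call was lost without Vector replicate 3 (0.0805) or OE-MMP28 replicate 2 (0.0510). DMRTA1, the nearest gene tested toward higher coordinates, lies 437478 bases away and fell by 0.65 (adjusted p = 0.0473). CDKN2B-AS1, whose range holds CDKN2B, had a log2 fold change of 0.16 (adjusted p = 0.708). The median within 10 Mb of CDKN2B was 0.06.

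CDKN2A, next to CDKN2B on chromosome 9 (21967753 to 21995301, minus strand), encodes p16 and, from another first exon, p14ARF. It measured 35.6, 42.7 and 38.5 FPKM in Vector and 25.2, 35.1 and 35.3 FPKM in OE-MMP28 libraries. The nearest libraries lay 0.339 FPKM apart, and the groups overlapped once counts were scaled by TMM. Its log2 fold change was -0.28 (SE 0.16, 95% interval -0.61 to 0.06, edgeR adjusted p = 0.226), and 1 count per gene cannot separate its transcripts. The antisense transcript CDKN2B-AS1, which shares 7.88% of the exon bases of CDKN2A, had a log2 fold change of 0.16 (adjusted p = 0.708), and MTAP, a further gene of this region, had 0.05 (adjusted p = 0.853).

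CDKN2C, the gene of p18 on chromosome 1 (50960745 to 50974633, plus strand), was the lowest member tested, at 43 to 158 counts per library. It measured 1.75, 0.959 and 2.07 FPKM in Vector and 2.29, 2.68 and 2.83 FPKM in OE-MMP28 libraries. The groups did not overlap, and the log2 fold change of 0.71 (SE 0.26, 95% interval 0.17 to 1.25) was larger than that of any other member but missed the threshold (edgeR adjusted p = 0.0517). Its adjusted p was under 0.05 in 5 of 19 other fits. CDKN2C took 2.28% ± 0.82 (SD, n = 3) of the summed level of the 3 INK4 members in Vector and 4.74% ± 0.19 (SD, n = 3) in OE-MMP28 cells, without overlap. The sum, which leaves out CDKN2D, was 69.9 ± 1.16 FPKM in Vector and 54.9 ± 6.31 FPKM in OE-MMP28 cells (SD, n = 3 each), also without overlap. Its largest part was CDKN2A, at means of 38.9 and 31.8 FPKM, which did not pass the test and whose transcripts for p16 and p14ARF are not separated.

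The CIP/KIP members CDKN1A and CDKN1B moved in opposite directions. CDKN1B, the gene of p27 on chromosome 12 (12715058 to 12722371, plus strand), measured 18.0, 28.6 and 22.7 FPKM in Vector libraries and 15.2, 15.3 and 12.7 FPKM in OE-MMP28 libraries. All OE-MMP28 libraries lay below all Vector libraries. CDKN1B fell by 0.67 on the log2 scale (SE 0.18, 95% interval -1.04 to -0.31, edgeR adjusted p = 0.00859). It was the only member with an adjusted p under 0.05 in all 19 other fits, where the largest was 0.0482. AC008115.3, a gene inside the range of CDKN1B that shares no exon base with it, had a log2 fold change of -1.30 (adjusted p = 0.00983).

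CDKN1A, the gene of p21 on chromosome 6 (36676460 to 36687339, plus strand), measured 10.04, 5.73 and 5.58 FPKM in Vector and 10.5, 11.9 and 10.97 FPKM in OE-MMP28 libraries. Vector replicate 1 stood apart from the other Vector libraries and lay 0.475 FPKM below the lowest OE-MMP28 library. CDKN1A rose by 0.66 on the log2 scale (SE 0.20, 95% interval 0.24 to 1.08, edgeR adjusted p = 0.0229), and by 0.99 without Vector replicate 1 (adjusted p = 0.000431). The call was lost without Vector replicate 2 (0.0749), Vector replicate 3 (0.132), OE-MMP28 replicate 2 (0.109) or OE-MMP28 replicate 3 (0.0630), and by limma on log2(FPKM + 1) (0.0540). The nearest genes tested on either side also rose, SRSF3 by 0.42 (adjusted p = 0.0438) and PPIL1 by 0.53 (adjusted p = 0.0262), while the median within 10 Mb was 0.05.

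CDKN1A took 35.8%, 16.7% and 19.8% of the summed level of CDKN1A and CDKN1B in the Vector libraries and 40.9%, 43.8% and 46.4% in the OE-MMP28 libraries. The shares did not overlap, and their means were 24.1% ± 10.2 and 43.7% ± 2.74 (SD, n = 3 each). The summed level of these members, without CDKN1C, was 30.2 ± 3.54 FPKM in Vector and 25.5 ± 1.79 FPKM in OE-MMP28 cells (SD, n = 3 each). The sums also did not overlap, but the nearest libraries were close, at 28.0 FPKM in Vector and 27.2 FPKM in OE-MMP28.

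**Figure D2:**
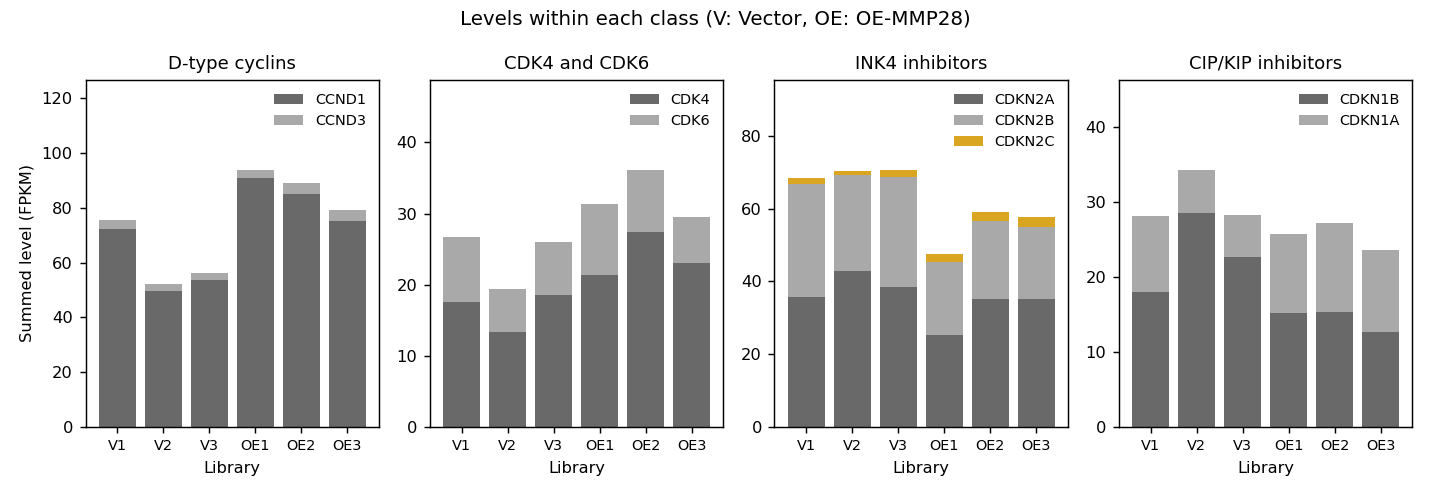
Summed level per library (vertical, FPKM; horizontal, 3 Vector libraries V1 to V3 and 3 OE-MMP28 libraries OE1 to OE3) for the 4 classes of members, each bar stacked by gene. The sums of D-type cyclins and of CDK4 with CDK6 lie higher in all OE-MMP28 libraries, and those of the INK4 and CIP/KIP members (without CDKN2D and CDKN1C) lie lower, with CDKN1A at a mean of 24.1% of the sum with CDKN1B in Vector and 43.7% in OE-MMP28 libraries.

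By level per gene length, the order in Vector cells was CCND1, CDKN2A, CDKN2B, CDKN1B, CDK4, CDK6, CDKN1A, CCND3, CDKN2C and CCND2. In this order the ranges of CDKN2B and CDKN1B, of CDKN1B and CDK4, and of CDK6 and CDKN1A overlapped. In OE-MMP28 cells the order was CCND1, CDKN2A, CDK4, CDKN2B, CDKN1B, CDKN1A, CDK6, CCND3, CDKN2C and CCND2, with overlap between CDKN2A and CDK4 and between CDK4 and CDKN2B. CDK4 stood below CDKN2B and CDKN1B by its mean in Vector cells and above both in OE-MMP28 cells.

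**Figure D3:**
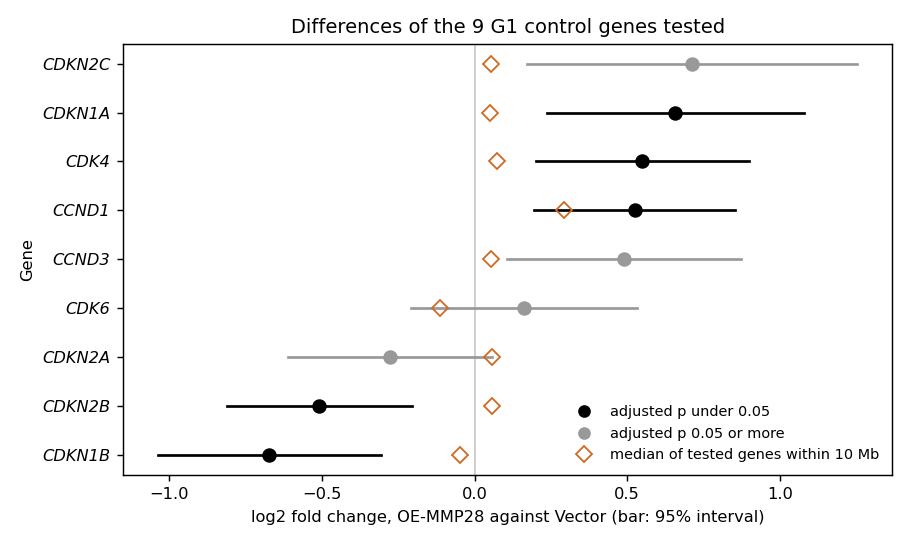
Fitted log2 fold change of the 9 members tested (horizontal, OE-MMP28 against Vector; vertical, genes), with bars for 95% intervals, black for an adjusted p under 0.05 and grey otherwise. Open diamonds are the median of the other genes tested within 10 Mb, which reaches 0.29 beside CCND1 and lies between -0.11 and 0.07 beside the other members.

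Leaving out 1 library at a time kept the direction of all 9 members. For the 7 members whose groups did not overlap in scaled counts, the direction could hardly have reversed. The number called ranged from 1 without OE-MMP28 replicate 2, when CDKN1B alone remained, through 2 without Vector replicate 2 and 3 without Vector replicate 3, to 7 without Vector replicate 1. Without Vector replicate 1, 5 members were called higher and 2 lower.

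**Figure D4:**
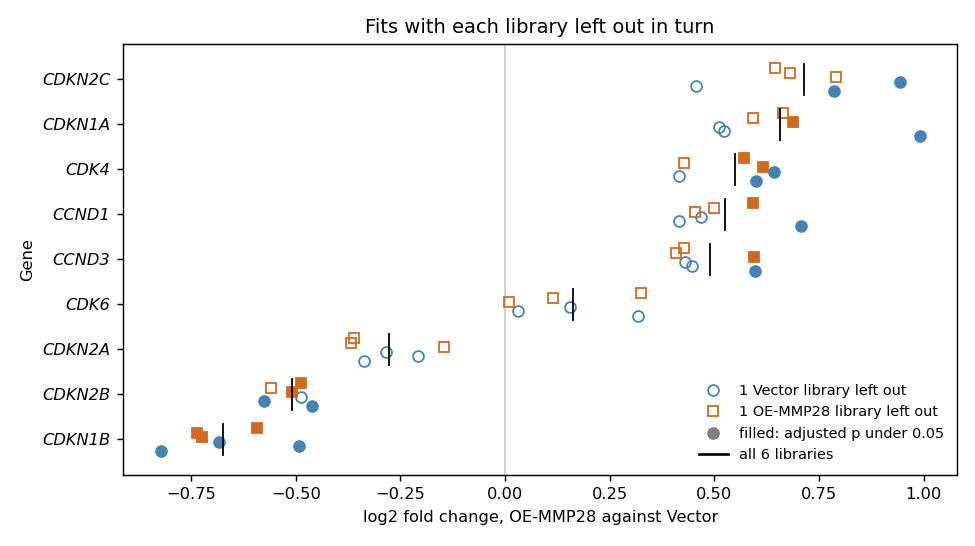
Log2 fold change of each member (vertical) after leaving out 1 Vector library (circles) or 1 OE-MMP28 library (squares), filled where the adjusted p was under 0.05, with a line at the value from all 6 libraries. All points of a gene lie on 1 side of 0, those of CDK6 reach down to 0.01, and CDKN1B alone is filled in all 6 fits.

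The genes downstream of these regulators were described from lists of pathway members. This list and those below were chosen with earlier results of these data known. Their counts beside the shares of all genes are therefore a description and no test. Among 23 replication genes that E2F factors are known to switch on, 11 rose and 0 fell, beside 11.7% and 11.6% of all genes tested, and 12 did not pass the test. Their median log2 fold change was 0.45. The rise was 1.15 for MCM2 (SE 0.18, edgeR adjusted p = 0.000112) and 0.80 for MCM5 (SE 0.15, adjusted p = 0.00104), both parts of the replicative helicase. PCNA, the sliding clamp of DNA polymerase, rose by 0.71 (SE 0.16, adjusted p = 0.00289), and CDC6, which loads the helicase, rose by 0.64 (SE 0.17, adjusted p = 0.00988). The median log2 fold change of the genes within 10 Mb was 0.50 for MCM2, 0.03 for MCM5 and 0.05 for PCNA. The number that rose was 6 without OE-MMP28 replicate 2 and 8 to 14 without any other single library, and 14 relative to the regional medians.

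Of 13 genes of the RB family and E2F factors, 5 rose (E2F1, E2F7, E2F8, TFDP1 and TFDP2), 2 fell (RBL2 and E2F5) and 6 did not pass, beside 11.7% higher and 11.6% lower over all genes tested. E2F8, known as a repressor among the E2F factors, rose by 0.84 (edgeR adjusted p = 0.00192), and RBL2, which encodes the pocket protein p130 of resting cells, fell by 0.89 (adjusted p = 0.00123). E2F1, an activator, rose by 0.61 (adjusted p = 0.0233), and RB1 had a log2 fold change of 0.28 (adjusted p = 0.237). The number that rose was 2 without Vector replicate 3 or OE-MMP28 replicate 2 and 3 without OE-MMP28 replicate 1 or 3, and the number that fell was 1 without Vector replicate 3, OE-MMP28 replicate 2 or OE-MMP28 replicate 3. By limma on log2(FPKM + 1), 3 rose and 1 fell, and relative to the regional medians 4 rose and 1 fell.

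Of 11 further cyclins, kinases and activators of the G1/S step, 3 rose and 0 fell, beside 11.7% and 11.6% of all genes tested. CDC25A, a phosphatase that activates CDKs, rose by 0.65 (edgeR adjusted p = 0.0191), CCNA2 by 0.53 (0.0209) and CCNE2 by 0.57 (0.0399). CCNE1 measured 0.57 (0.0626) and CDK2, the partner of the E cyclins, 0.15 (0.541). None of the 11 was called without Vector replicate 2, OE-MMP28 replicate 1 or OE-MMP28 replicate 2. With upper quartile scaling 2 rose and 1 fell, and by limma on log2(FPKM + 1) 1 rose. Of 3 other CDK inhibitors, CDKN3, a phosphatase of CDKs, rose by 0.87 (adjusted p = 0.00149), beside a median of 0.56 within 10 Mb, and was not called relative to it. CDKN1C, at 1.01 ± 0.36 and 0.591 ± 0.076 FPKM in Vector and OE-MMP28 cells (SD, n = 3 each), had a log2 fold change of -0.75 (0.139). CDKN2D, at 2.40 ± 1.42 and 1.36 ± 0.061 FPKM, had -0.80 (0.125).

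Among 15 markers of mitosis and proliferation, 3 rose and 0 fell, and over all genes tested 11.7% rose and 11.6% fell. CDC20 rose by 0.68 (edgeR adjusted p = 0.00264), PLK1 by 0.59 (0.00874) and CCNB1 by 0.51 (0.0120), while MKI67 measured -0.11 (0.606), TOP2A 0.19 (0.4004) and CDK1 -0.25 (0.249). Without OE-MMP28 replicate 2, 1 of the 15 rose.

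Of 13 genes for ubiquitin ligase parts that act on G1 proteins, 4 rose and 1 fell, beside 11.7% and 11.6% of all genes tested. With upper quartile scaling 2 rose and 2 fell. With scaling by library totals 2 rose and 1 fell, and so did they relative to the regional medians. SKP2 and CKS1B, which together mark the p27 protein for degradation, rose by 0.50 (edgeR adjusted p = 0.0420) and 0.46 (0.0471). FBXO31 fell by 0.69 (adjusted p = 0.00441), FBXO4 rose by 0.59 (0.0243) and CKS2 rose by 0.54 (0.0240). The number that rose was 0 without Vector replicate 2 or OE-MMP28 replicate 2, 1 without Vector replicate 3 or OE-MMP28 replicate 1, and 2 without OE-MMP28 replicate 3.

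Of 26 transcriptional regulators of the D-type cyclin and inhibitor genes, 3 rose, 2 fell and 21 did not pass, and the shares over all genes tested were 11.7% and 11.6%. With upper quartile scaling 2 rose and 4 fell, and relative to the regional medians 2 rose and 2 fell. FOSL1, a partner in AP-1, rose by 0.98 (edgeR adjusted p = 0.00100) and EED, a subunit of the Polycomb complex PRC2, by 0.95 (0.000506). KLF4, a zinc finger factor, rose by 0.47 (0.0378). CTNNB1, the gene of beta-catenin, fell by 0.47 (0.0226) and KLF6 by 0.61 (0.00365). MYC, at 0.10 (0.672), and FOXO3, at -0.44 (0.0769), did not pass. The number that fell was 1 without Vector replicate 3 or OE-MMP28 replicate 3.

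**Figure D5:**
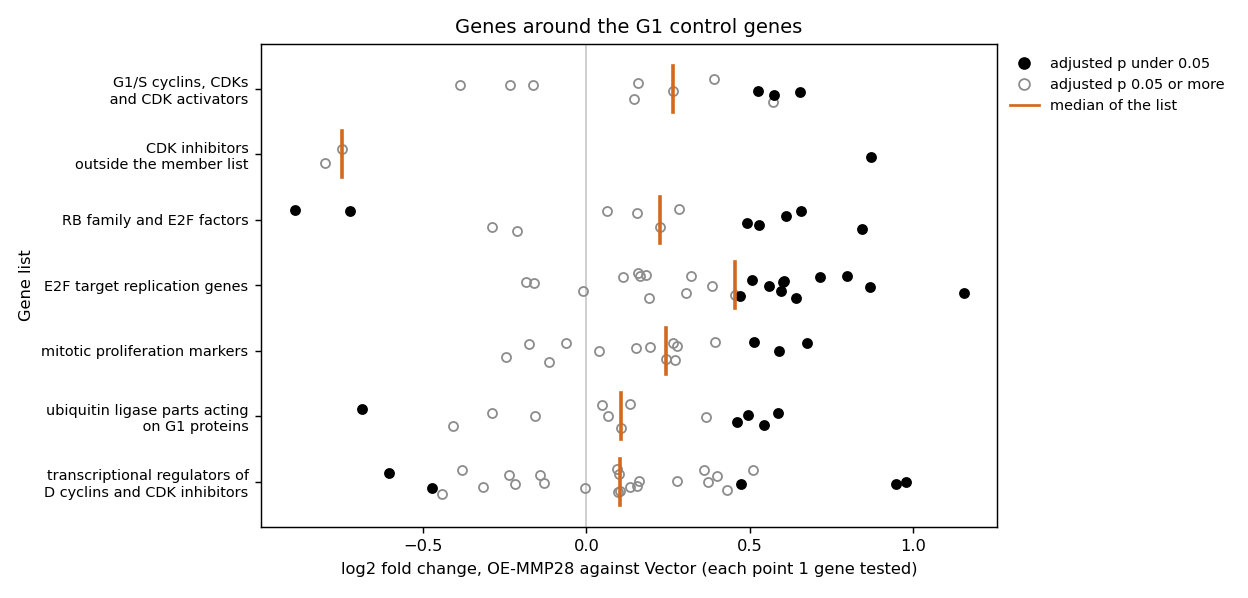
Log2 fold change (horizontal, OE-MMP28 against Vector) of each gene tested in 7 gene lists (vertical), black where the adjusted p was under 0.05, with a bar at the median of each list. The E2F target replication genes have a median of 0.45 and 11 black points, all on the positive side.

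Across the 6 libraries, the genes whose log2 CPM most resembled those of the 3 members with the lowest adjusted p were found among 12257 genes averaging 1 FPKM or more. These were FMO5, POLR1D and WDR19 for CDKN1B (Pearson's r 0.996, 0.992 and 0.992), HOXA-AS3, C2CD2 and SOX4 for CDKN2B (0.995, 0.993 and 0.991), and ARNTL2, DCAF1 and INTS14 for CCND1 (0.996, 0.993 and 0.993). Each r is a description over 6 points that hold the difference between the groups.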

How the data were processed

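RNA of 6 AsPC-1 libraries was compared, with groups taken from the labels. The authors deposited raw read counts per gene, neither normalized nor pooled, and FPKM values, per the file headers, in 1 table. HISAT2 2.0.5 and featureCounts 1.5.0-p3 are named in the submitters' processing notes. Coordinates and identifiers of all 58735 genes were those of GENCODE on GRCh38. The table also holds p-values, adjusted p-values and log2 fold changes that the authors deposited from their own comparison, and these were not used. FPKM implied library totals within -2.01% to 2.02% of the summed counts.

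Counts were tested with edgeR 4.0.16 (quasi-likelihood, R 4.3.3) after filterByExpr (minimum count 10, minimum total 15; 15319 genes kept) and TMM scaling, with group as the only term, Benjamini-Hochberg adjustment over all genes tested and a threshold of 0.05. The study's methods name limma, but these values were counts, so edgeR was the main test. SE is the log2 fold change over the square root of the F statistic. Levels between genes were compared as FPKM. The script was tested on simulated counts of this comparison with 15290 genes tested. There, 37.3% of genes changed 1.5-fold, 92.5% of those changed 2-fold and 100% of those changed 4-fold were recovered, and 4.97% of calls were false. Only 67, 67 and 66 genes were changed by these folds, and all genes were given the same dispersion. Far more genes were called in the real counts, so the recovery there may differ.

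The members and gene lists were chosen with earlier results of these data known. Named genes were MMP28, all members, list genes with an adjusted p under 0.05 (at most 6 of lowest p per list), nearest tested genes and the 3 most alike genes of 3 members. RB1, CCNE1, MTAP, CDK2, CDKN1C, CDKN2D, MKI67, TOP2A, CDK1, MYC, FOXO3 and TFDP2 fell outside this rule and were named after their values were seen. Alternatives were leaving out each library, the replicate number as a block, other scalings and filters, DESeq2 1.42.0, limma 3.58.1, removal of mitochondrial genes, protein-coding genes alone, and an offset for the regional median within 10 Mb. A fold on log2(FPKM + 1) understates the change of low genes. A further gene list and a gene of another list are not reported here. Limits of 3 counts cover counting error only.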

Additional observations from a re-analysis of the deposited data

How the results depend on the processing

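The direction of the 9 members tested was kept in all 171 fits of a member under an alternative. For the 7 members without overlap in scaled counts it could hardly have reversed, so this count says little about stability. The 5 members called kept an adjusted p under 0.05 in 80 of 95 fits, and the 4 not called came under it in 7 of 76. Most of these fits used the same 6 libraries, so the totals overstate how stable the calls were. Of the 6 fits that left out 1 library, CDKN1B was called in 6, CDK4 and CDKN2B in 4 each, and CCND1 and CDKN1A in 2 each. CDKN1B was called in all 19 alternatives, CDKN2B in 17, CDK4 in 16, and CCND1 and CDKN1A in 14 each. Leaving out 1 library gave 1 to 7 members called (0 to 5 higher, 1 to 2 lower), 2029 to 3865 of all genes called, and 6 to 14 E2F target replication genes called higher. The last of these was chosen after seeing the data. Without Vector replicate 3, 2367 genes were called. With the offset for the regional median, 3 members (1 higher, 2 lower) and 2325 of all genes were called. At an adjusted p under 0.01, 1 member (0 higher, 1 lower) and 1864 genes were called. Requiring an absolute log2 fold change over 1 left 0 members, 0 higher and 0 lower, both with an unadjusted p under 0.05 (1302 genes) and with an adjusted p under 0.05 (1131 genes), although 7 of the 9 members had an unadjusted p under 0.05 by edgeR. MMP28 was called in all 19 alternatives. The 48 alternative values of level shares stayed within 1 SD of the main values. This limit could not be passed by leaving out 1 library or by scaling FPKM to a fixed library sum. Only the values from CPM could have passed it, so the count does not show that the shares are stable. The difference in the CCND1 share, 0.12 percentage points with all libraries, ran from -0.41 to 0.51 points. Other scalings moved the median of all genes by at most 0.05 on the log2 scale.

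The replicate block called 6 members (4 higher, 2 lower) and 3685 genes. Deviations of same-numbered libraries correlated at 0.02, 0.01 and -0.09 across genes, so the numbers were not taken as pairs. Under the block CDKN2C passed the threshold (adjusted p = 0.0228). With 3 libraries per group, a member that did not pass was not shown to be unchanged. Changes of 1.5-fold were often missed in simulated counts, but far fewer genes changed there, so that recovery may not hold here.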
